A study of Mus musculus with 5 samples.

Results

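The genes of glycolysis and of the hypoxia response described here were 32 genes chosen by name from 24860 gene symbols counted. They were 17 glycolytic genes and 15 other genes known to respond to low oxygen, and all 32 were found by symbol. Single cells were captured in droplets from mammary tumours of the mouse cell line SSM2, started by placing 100000 cells into a mammary gland of mice aged 10 to 12 weeks. Progesterone mice carried a pellet of progesterone, the steroid hormone of the luteal phase and of pregnancy, and placebo mice carried a placebo pellet (60 mg, made to release over 60 days). Tumours were taken 28 to 62 days later. Progesterone had 3 libraries and placebo had 2. Batch 1 held Progesterone 1 and Placebo 1, and batch 2 held Progesterone 2, Progesterone 3 and Placebo 2, as the sample titles name the batches. All tumours came from the same cell line, and the genotype of the host mice is not given in the sources used here. Progesterone 2 and Progesterone 3 carry the same identifier in their deposited names, apart from the letters L and R, so that both may stem from 1 animal.

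Glycolysis splits glucose into pyruvate in the cytosol and yields ATP without oxygen. When oxygen is short, the HIF transcription factors (Hif1a or Epas1 paired with Arnt) are no longer hydroxylated by the Egln prolyl hydroxylases and degraded through Vhl, and they bind short DNA elements with the core ACGTG or GCGTG. Their known targets include most glycolytic enzymes and a set of genes with other work, such as pH control (Car9), removal of mitochondria (Bnip3, Bnip3l), collagen hydroxylation (P4ha1, P4ha2), feedback on HIF itself (Egln1, Egln3) and a brake on growth signalling (Ddit4).

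The promoter windows of 6 members are shown because these genes were among those with the clearest differences between progesterone and placebo in the tumour epithelium, or between epithelial cells and macrophages. Each window runs from 250 bases before to 50 after the start of the gene in RefSeq on the GRCm38.p6 build, read 5′ to 3′ along the gene. Capitals mark ACGTG or GCGTG on either strand (CACGT and CACGC where the match is on the other strand). Overlapping matches are counted singly, as CACGC and GCGTG within the CACGCGTG of Ankrd37. Pgk1 (phosphoglycerate kinase) has the window chrX:106186850-106187149 on the plus strand, Gapdh (glyceraldehyde phosphate dehydrogenase) chr6:125165724-125166023 on the minus strand, and Car9 (a membrane carbonic anhydrase) chr4:43506776-43507075 on the plus strand. Egln3 (a prolyl hydroxylase) has chr12:54203825-54204124 on the minus strand, P4ha2 (a collagen prolyl hydroxylase subunit) chr11:54100674-54100973 on the plus strand, and Ankrd37 (an ankyrin repeat protein) chr8:45999801-46000100 on the minus strand.
Pgk1: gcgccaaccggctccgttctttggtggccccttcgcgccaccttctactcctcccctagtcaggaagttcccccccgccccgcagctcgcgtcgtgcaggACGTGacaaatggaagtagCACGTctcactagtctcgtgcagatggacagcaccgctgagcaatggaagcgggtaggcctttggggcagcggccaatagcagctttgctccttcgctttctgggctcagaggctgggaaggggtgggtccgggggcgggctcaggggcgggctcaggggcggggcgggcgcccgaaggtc
Gapdh: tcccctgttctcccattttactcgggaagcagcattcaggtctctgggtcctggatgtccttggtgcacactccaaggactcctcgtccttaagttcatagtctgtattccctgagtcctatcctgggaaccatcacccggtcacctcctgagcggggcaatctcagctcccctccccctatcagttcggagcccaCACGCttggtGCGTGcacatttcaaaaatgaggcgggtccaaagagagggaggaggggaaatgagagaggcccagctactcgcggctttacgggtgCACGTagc
Car9: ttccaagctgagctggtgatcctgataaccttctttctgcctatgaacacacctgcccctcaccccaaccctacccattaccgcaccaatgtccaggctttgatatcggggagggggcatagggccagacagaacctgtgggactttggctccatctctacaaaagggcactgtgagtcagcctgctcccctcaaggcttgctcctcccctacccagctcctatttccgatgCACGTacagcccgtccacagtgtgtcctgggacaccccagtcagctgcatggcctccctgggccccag
Egln3: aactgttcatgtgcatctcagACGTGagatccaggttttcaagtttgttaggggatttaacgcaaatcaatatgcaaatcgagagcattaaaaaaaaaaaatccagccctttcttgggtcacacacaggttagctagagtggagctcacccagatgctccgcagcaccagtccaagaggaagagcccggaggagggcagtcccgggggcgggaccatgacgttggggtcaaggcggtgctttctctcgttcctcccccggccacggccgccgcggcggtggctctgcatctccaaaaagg
P4ha2: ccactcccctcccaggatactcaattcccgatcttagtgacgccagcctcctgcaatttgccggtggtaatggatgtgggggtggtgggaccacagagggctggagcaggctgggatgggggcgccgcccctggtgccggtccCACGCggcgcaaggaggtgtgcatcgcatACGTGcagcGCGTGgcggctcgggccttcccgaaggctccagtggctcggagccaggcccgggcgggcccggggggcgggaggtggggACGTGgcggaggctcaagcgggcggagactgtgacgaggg
Ankrd37: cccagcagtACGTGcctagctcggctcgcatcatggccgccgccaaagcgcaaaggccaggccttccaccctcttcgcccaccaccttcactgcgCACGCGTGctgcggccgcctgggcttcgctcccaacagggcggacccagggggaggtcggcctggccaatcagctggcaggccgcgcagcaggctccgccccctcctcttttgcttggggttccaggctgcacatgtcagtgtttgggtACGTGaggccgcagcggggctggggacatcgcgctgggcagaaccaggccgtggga

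The windows of Ankrd37 and P4ha2 held 4 matches each and that of Gapdh 3, against 2 for Pgk1 and 1 each for Car9 and Egln3. A window was listed for 30 of the 32 members, with Bnip3l and Ndrg1 named only, and Ero1l was matched by its newer symbol Ero1a. At least 1 match stood in 11 of 17 glycolytic windows (64.7%) and in 13 of 13 windows of the other hypoxia members (100%). Over all genes it stood in 11848 of 27025 windows (43.8%). The glycolytic windows without one were those of Hk1, Gpi1, Aldoa, Tpi1, Eno2 and Pkm. A match describes these letters and is not a measured binding site.

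Cell classes were named by how far the marker genes of a cluster stood above their mean over all clusters. A class name therefore does not mean that its markers lead in every library. The 5 libraries held 23409215 to 204786073 UMIs (unique molecular identifiers, 1 per captured transcript), and pairs of libraries shared at most 12 cell barcodes. Epithelial cells numbered 61, 3111 and 3291 in Progesterone 1, 2 and 3, against 2 and 2845 in Placebo 1 and 2, so Placebo 1 gave no epithelial value. None of the 8 epithelial markers was at 0 in that class, and they summed to 16730.1, 18887 and 19699 CPM (UMIs scaled to a total of 1000000 for the class) in Progesterone 1, 2 and 3 and to 29686 in Placebo 2. Macrophages numbered 445, 1077 and 730 in Progesterone 1, 2 and 3, against 61 and 735 in Placebo 1 and 2. Of the 61 in Placebo 1, 46 fell in a cluster whose median UMI count was 0.0676 times its libraries' median. Over these 61 cells monocyte markers summed to 5204 CPM, above the 2981 of the macrophage markers.

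Across classes, the glycolytic members had their highest sums in tumour epithelium and macrophages and their lowest in B cells. Summed over the 17 genes, the median over libraries was 7959 (6697 to 10417, n = 4) CPM in epithelial cells and 6732 (5279.6 to 9633, n = 5) in macrophages, with the lowest and highest library in parentheses. Neutrophils had 4683 (3995 to 11397, n = 3), fibroblasts 4209 (3680.2 to 5163, n = 4), endothelial cells 3041 (2567 to 4128, n = 3) and T cells 3011 (1109 to 3542, n = 5). Plasmacytoid dendritic cells had 2629 (1749.9 to 3323, n = 4), NK cells 2302 (2085 to 2405, n = 3) and B cells 1545 (992 to 2397, n = 4). Every neighbouring pair in this order overlapped in range. No test was made between classes, since they came from clusters of the same cells.

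The other hypoxia members followed another order. Their 15 genes summed to a median of 1851 (1652 to 2694) CPM in epithelial cells, 1584 (911 to 1974) in fibroblasts, 1420.3 (1408 to 6985) in neutrophils, 981 (937 to 1402) in endothelial cells and 963 (724 to 2620.2) in macrophages. T cells had 806 (592 to 1176), plasmacytoid dendritic cells 596 (441 to 787), NK cells 595 (559.6 to 679) and B cells 452 (367 to 571). Neighbouring classes overlapped in range, apart from neutrophils and endothelial cells. The classes were present in different libraries, and single libraries departed from this order. In Progesterone 1 macrophages had 2620.2, endothelial cells 1402 and fibroblasts 911, and in Placebo 2 macrophages had 1102, endothelial cells 981 and fibroblasts 1414. The glycolytic sum was 5.81 (3.68 to 9.75) times the other hypoxia sum in macrophages, 4.16 (3.12 to 5.36) times in epithelial cells and 2.72 (2.52 to 4.04) times in fibroblasts.

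**Figure D1:**
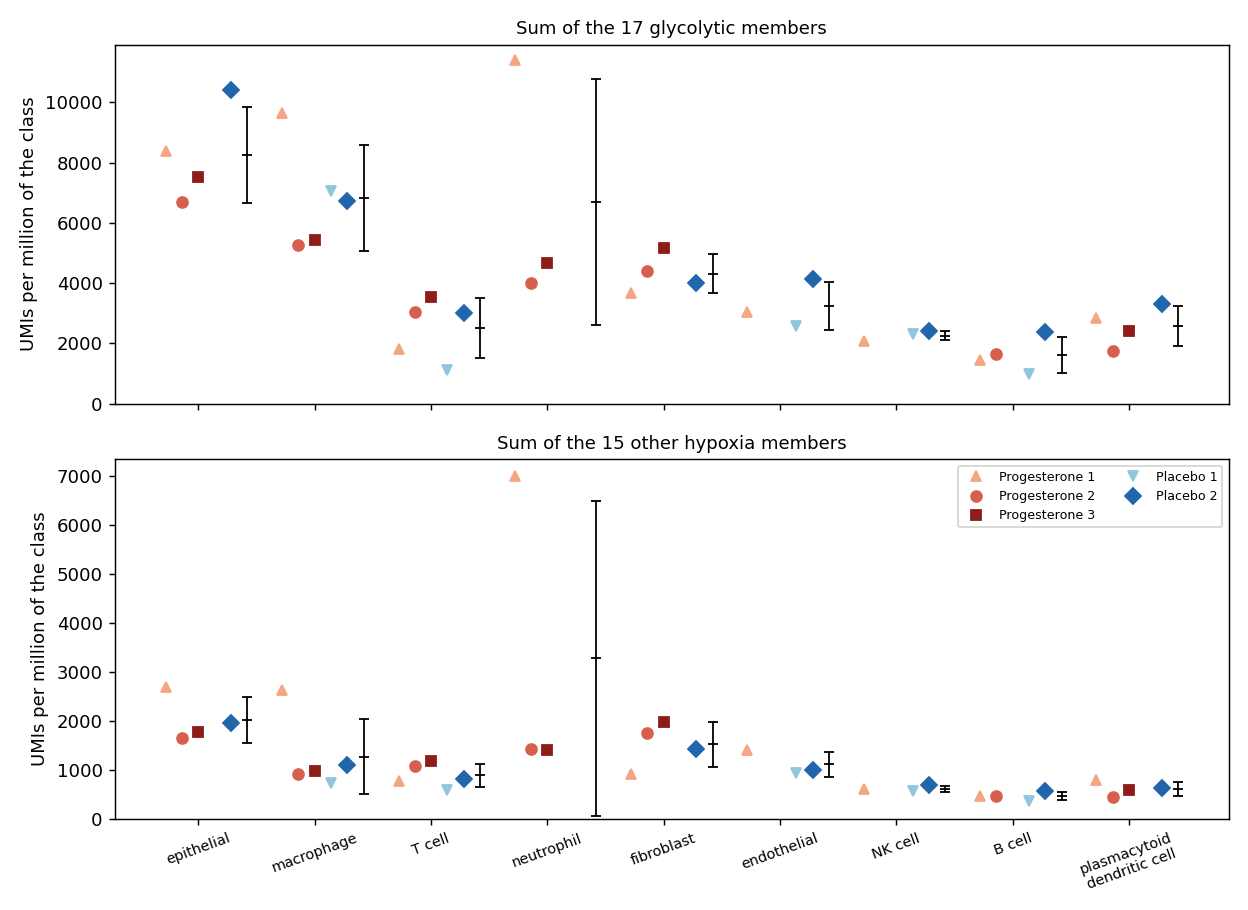
Summed CPM of the 17 glycolytic (top) and 15 other hypoxia members (bottom) in each cell class, 1 point per library with at least 10 cells, progesterone libraries left of placebo libraries, with the mean and SD over the libraries in black. Neutrophils of Progesterone 1 stand at 11397 and 6985, apart from the other neutrophil libraries, and epithelial cells of Placebo 2 at 10417 stand above all 3 progesterone libraries for glycolysis.

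Single members had their highest medians in different classes. Slc16a3, the lactate exporter gene, was highest in neutrophils, at 353, 621 and 948 CPM in Progesterone 1, 2 and 3, above every library of macrophages (at most 219.6). In epithelial cells it stood between 0.379 and 2.12. Slc2a1, the gene of the main glucose transporter, also had its highest median in neutrophils (592, 329.7 and 362), where macrophages of Progesterone 1 reached 435, while Hk2, the inducible hexokinase gene, had its highest median in fibroblasts (360.2). Pgam1 (phosphoglycerate mutase), Pkm (pyruvate kinase), Ndrg1 and Higd1a were highest in epithelial cells with no overlap with any other class. Egln1 also had its highest median there, and macrophages and neutrophils of Progesterone 1 reached into its epithelial range. Adm, the gene of the hormone adrenomedullin (median 83.1), P4ha2 (148) and P4ha1 (329.8) had their highest medians in fibroblasts, with overlap. In Progesterone 1 another class was above fibroblasts for each, with 160.2 against 11.2 CPM of Adm in endothelial cells and fibroblasts, 61.2 against 19.3 of P4ha2 in epithelial cells and fibroblasts, and 763 against 275 of P4ha1 in neutrophils and fibroblasts.

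Neutrophils of Progesterone 1 stood apart from those of batch 2. Ero1l, an oxidase gene of the endoplasmic reticulum, had 3027, 317 and 362 CPM in Progesterone 1, 2 and 3, and Egln3 had 666, 152 and 97.6. These libraries held 337, 26 and 29 neutrophils, and epithelial markers summed there to 198, 2739 and 2453 CPM, whose part in the difference was not tested. No placebo library had 10 neutrophils.

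In epithelial cells the glycolytic genes were lower with progesterone, while the other hypoxia genes split. Of the 17 glycolytic members 14 fell and 3 did not pass, all 17 with ratios below 0 at this scaling and a median log2 ratio of -0.77 (edgeR quasi-likelihood test, Benjamini-Hochberg adjusted p under 0.05). Of the 15 other hypoxia members 8 fell, 4 rose and 3 did not pass, with a median of -0.46. Over all 16386 genes tested 25.9% were lower and 25.4% higher, with a median of 0.02, so the 4 of 15 that rose were near the background. All 32 members passed the filter on low counts. The fit has batch as a term and 1 residual degree of freedom, so it sets Progesterone 2 and 3 against Placebo 2, a lone library assumed to vary like the others, and treatment cannot be told apart from a difference between these tumours. In sums over a class, another mix of cells and another level per cell cannot be told apart either.

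Epithelial libraries also differed beyond these genes. Malat1, a nuclear RNA, had 34350.1, 25075 and 28808 CPM in Progesterone 1, 2 and 3 against 14694 in Placebo 2, and the ribosomal precursor Rn45s had 14379.9, 9638 and 19614 against 5740.4. Their part in the result was not tested. Without the epithelial cluster richest in Malat1, all 26 called members kept their direction. This cannot show the part of Malat1, since clusters of mainly progesterone cells stayed in with 26461 (cluster 19) and 32847 CPM (cluster 20). Cluster 17, of mainly placebo cells, had 15548. Scaled by library totals in place of TMM, the median of all genes moved to 0.16, with 5575 genes higher and 3151 lower against 4159 and 4250 with TMM, and 24 of the 26 kept their call.

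**Figure D2:**
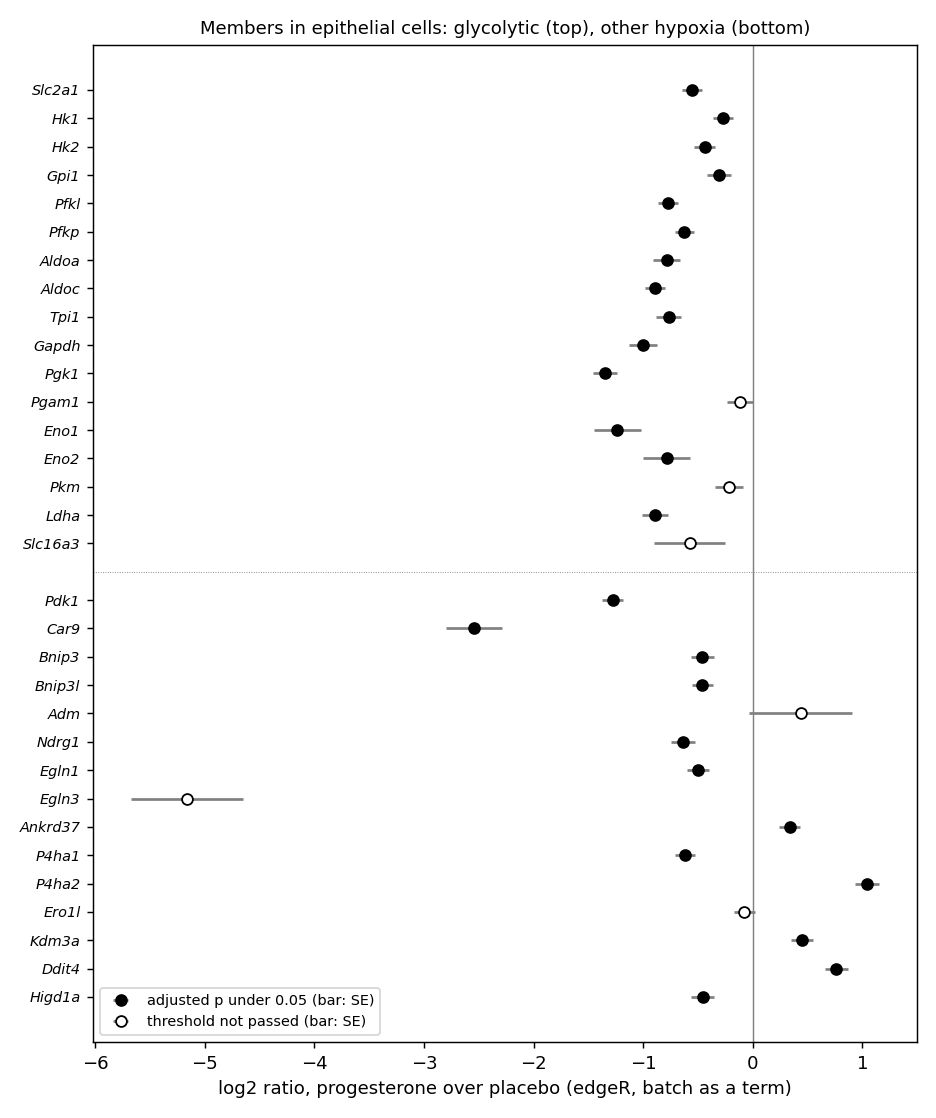
Log2 ratio of progesterone over placebo in epithelial cells for each member (edgeR with batch as a term), glycolytic members above and other hypoxia members below the dotted line, with SE as bars, filled where the adjusted p was under 0.05. All 17 glycolytic members lie left of 0, from -0.12 (Pgam1, which stood at 0.03 with library totals) to -1.34 (Pgk1), while the other hypoxia members run from -5.17 (Egln3) to 1.04 (P4ha2).

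Apart from Eno1, counted at a few CPM, the largest glycolytic differences were in Pgk1 and Gapdh, which stand side by side in the pathway. Pgk1 (GENCODE gene on chromosome X, 106187100 to 106203699 of GRCm38), whose enzyme makes the first ATP of glycolysis, had 527, 323 and 343 CPM in epithelial cells of Progesterone 1, 2 and 3, against 763 in Placebo 2. Progesterone 2 and 3 stood below Placebo 2 of their batch (log2 ratio -1.34, SE 0.109). Progesterone 1, of the other batch, stood below it too but adds nothing to this ratio. Gapdh, one step before it, had 2306, 1697 and 2012 against 3346 in the same libraries (log2 ratio -0.999, SE 0.13, edgeR adjusted p = 4.45e-07). Ldha, whose enzyme turns pyruvate into lactate, had 796, 630.3 and 688 against 1104 (log2 ratio -0.89, SE 0.115, edgeR adjusted p = 3.22e-07). For these genes no progesterone library reached the level of Placebo 2. Progesterone 1 is set against a placebo of the other batch here and in the like comparisons below. In the clustering without the members and lists, Pgk1 of Progesterone 1 over Placebo 1 (15 cells) was at a log2 ratio of 0.05. It was at 0.76 with the unnamed epithelial-scoring clusters added (171 cells of Placebo 1). For P4ha2, which rose, the same ratios were 0.96 and 1.95.

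Uptake and the first step moved less. Slc2a1 had 125, 103 and 103.8 against 137 CPM, in Progesterone 1, 2 and 3 and in Placebo 2, again with every progesterone library below placebo (log2 ratio -0.55, SE 0.0919, edgeR adjusted p = 1.49e-05). Hk2 had 225, 99.3 and 92.7 against 118, with Progesterone 1 above placebo and the others below it (log2 ratio -0.44, SE 0.0955, edgeR adjusted p = 0.000388). The other glycolytic members that fell lay between -0.89 (Aldoc) and -0.27 (Hk1), namely Eno2, Aldoa, Pfkl, Tpi1, Pfkp and Gpi1, in the order of their size. The enzymes that follow Pgk1 on the way to pyruvate did not all move. Pgam1 (-0.12, edgeR adjusted p = 0.414) and Pkm (-0.22, edgeR adjusted p = 0.147) did not pass, and neither did Slc16a3 (-0.58, edgeR adjusted p = 0.144).

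Eno1, an enolase gene, passed from a low level, with 7.78, 2.50 and 1.71 against 4.49 CPM (log2 ratio -1.24, SE 0.214, edgeR adjusted p = 0.000414). Its near-identical copy Eno1b was listed with 0 UMIs over all barcodes, so the level of Eno1 is uncertain in these counts.

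Among the other hypoxia members the largest differences were in Egln3 and Car9. Egln3 had 6.37, 1.83 and 1.02 CPM in epithelial cells of Progesterone 1, 2 and 3, against 46.6 in Placebo 2, which is 317 and 159 UMIs in Progesterone 2 and 3 against 7237 in Placebo 2. The groups did not overlap, but the ratio did not pass (log2 ratio -5.17, SE 0.511, edgeR adjusted p = 0.0578). Over the alternatives its adjusted p ran from 1.66e-13 (DESeq2) to 0.0726, with log2 ratios of -5.76 to -4.84. Car9, whose enzyme acidifies the surroundings of hypoxic cells, had 3, 85 and 57 UMIs against 351, or 1.06, 0.490 and 0.366 against 2.26 CPM. It fell, at a low level in every library (log2 ratio -2.54, SE 0.255, edgeR adjusted p = 3.86e-09).

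Of the other hypoxia members that fell, Pdk1, Ndrg1, Bnip3 and Higd1a had their highest level in Progesterone 1. Pdk1, for a kinase that keeps pyruvate out of mitochondrial oxidation, had 33.6, 13.7 and 13.8 CPM in Progesterone 1, 2 and 3 against 30.2 in Placebo 2 (log2 ratio -1.28, SE 0.0939, edgeR adjusted p = 9.09e-12). Ndrg1, a widely used marker of hypoxia, had 599.8, 332 and 363 against 488 (log2 ratio -0.64, SE 0.111, edgeR adjusted p = 2.51e-05). Bnip3, a mitophagy receptor gene, had 419, 172 and 189.6 against 225 (log2 ratio -0.46, SE 0.105, edgeR adjusted p = 0.000637). Higd1a, for a mitochondrial protein, had 548, 315 and 319 against 393 (log2 ratio -0.46). P4ha1 (-0.62), Egln1 (-0.50) and Bnip3l (-0.46) fell too, with all 3 progesterone libraries below Placebo 2.

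P4ha2, Ddit4, Kdm3a and Ankrd37 rose. P4ha2 had 61.2, 69.1 and 83.6 CPM in Progesterone 1, 2 and 3 against 33.4 in Placebo 2, with all 3 above placebo (log2 ratio 1.04, SE 0.109, edgeR adjusted p = 4.03e-07). P4ha1, the gene of the alternative catalytic subunit, went the other way, with 98.7, 92.4 and 95.3 against 130.1. Ddit4 (0.76), an mTOR inhibitor gene, Kdm3a (0.45), a histone demethylase gene, and Ankrd37 (0.34) rose as well. Ero1l (-0.07, edgeR adjusted p = 0.517) did not pass. Adm had 0, 0.196 and 0.250 against 0.148 CPM, from 0, 34 and 39 UMIs in Progesterone 1, 2 and 3 and 23 in Placebo 2, and did not pass (log2 ratio 0.44, SE 0.467, edgeR adjusted p = 0.454).

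These calls rest on the batch term and on which cells are counted. With no replicate block, which brings Progesterone 1 into the contrast, 0 glycolytic members passed as lower in edgeR (7 at an unadjusted p under 0.05) and 1 other hypoxia member did (Egln3, edgeR adjusted p = 0.0364), beside 2.61% of all genes lower and 1.81% higher, although 25 of the 26 called members kept their direction. With unnamed clusters that scored highest for epithelial markers added, 0 glycolytic members passed as lower (2 at an unadjusted p under 0.05, beside 7.8% of all genes lower and 8.34% higher), 20 of the 26 kept their direction and 2 their call. That setting brings in 171 cells of Placebo 1, and Progesterone 1 over Placebo 1 then gave median log2 ratios of 0.66 for glycolytic and 1.16 for other hypoxia members, the opposite direction. Within batch 2 the same setting gave -0.63 and -0.50 for the glycolytic members of Progesterone 2 and 3 over Placebo 2, and -0.36 and -0.24 for the others. The clustering without the members and lists also brings 15 cells of Placebo 1 into the fit, so that cells and placebo libraries change together. With it 9 glycolytic and 4 other hypoxia members passed as lower, beside 20.8% of all genes lower and 21.7% higher. Its glycolytic medians were 0.01 for Progesterone 1 over Placebo 1 and -0.65 and -0.53 for Progesterone 2 and 3 over Placebo 2, and those of the other hypoxia members 0.84, -0.38 and -0.26.

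Most epithelial clusters were made up mainly of 1 treatment. Cluster 17, led by Dcpp1, Gcg and Krt17, held 10 and 6 cells of Progesterone 2 and 3 against 2346 of Placebo 2. Its Placebo 2 cells had 10990.4 CPM of glycolytic and 2152 of other hypoxia members. The 10 cells of Progesterone 2 had 9018 and 2845, lower for glycolysis and higher for the other hypoxia members. Cluster 19, led by Muc19 and Krt6a, held 1216 and 1262 cells of Progesterone 2 and 3 against 49 of Placebo 2. Its glycolytic sums were 5265 and 5558 CPM with progesterone against 7205 with placebo, and its other hypoxia sums 1031 and 1025 against 1189. In cluster 6, with 554 and 478 cells against 14, the glycolytic sums were 5399 and 5989 against 8254. Its other hypoxia sums were 868 and 936 against 914. The few placebo cells stood above the progesterone cells for glycolysis in clusters 19 and 6. For the other hypoxia members they did so in cluster 19, but not over both progesterone libraries in cluster 6. In cluster 25, 10 cells of Progesterone 2 had glycolytic and other hypoxia sums of 2788 and 709, against 4699 and 1204 in 36 cells of Placebo 2.

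Cluster 20, with P4ha2 among its leading genes, held 29, 555 and 664 cells of Progesterone 1, 2 and 3 and 9 of Placebo 2. Its glycolytic sums of 13934, 14629 and 15258 CPM and other hypoxia sums of 5081, 5239 and 4615 were the highest of the named epithelial clusters. Cluster 23, richest in Malat1 (66829 CPM), had glycolytic sums of 2282, 2915 and 3149.8 in Progesterone 1, 2 and 3, against 1639 in Placebo 2 (12 cells). The progesterone epithelium held clusters above and clusters below cluster 17 of Placebo 2. Clusters were formed from the same counts, so these values are a description.

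**Figure D3:**
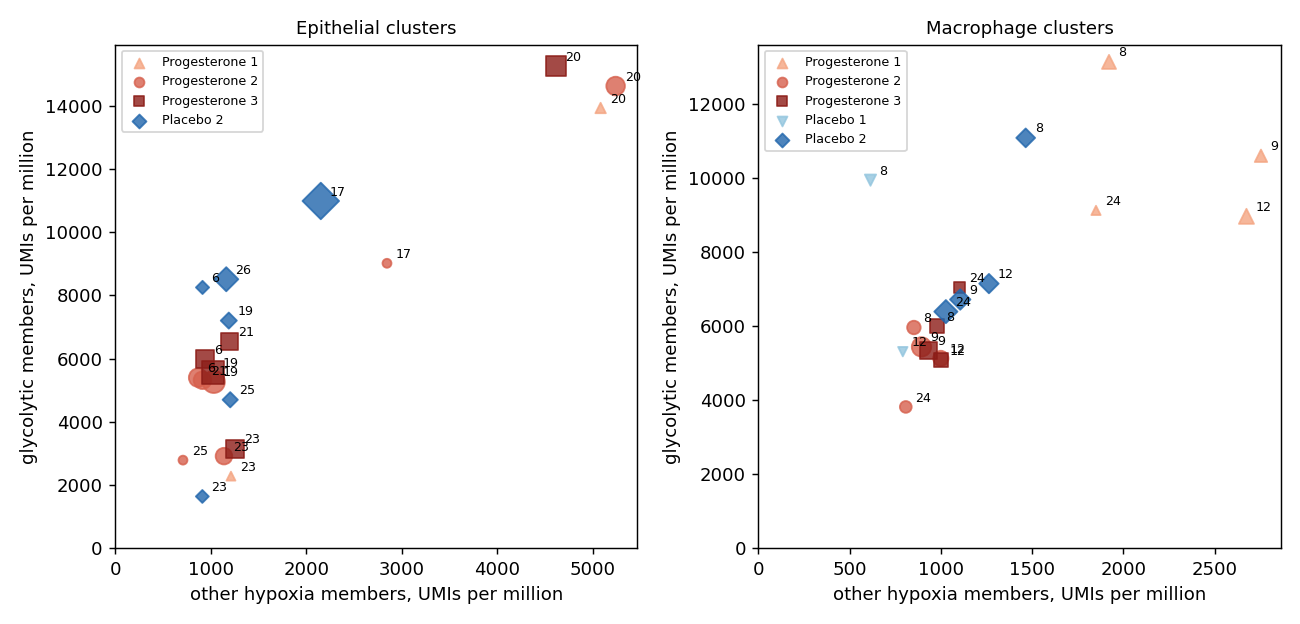
Glycolytic against other hypoxia members, in CPM, for each cluster and library with at least 10 cells, epithelial clusters on the left and macrophage clusters on the right, numbered by cluster, with points growing with the number of cells. Epithelial cluster 20 of the 3 progesterone libraries lies at the top right and cluster 17 of Placebo 2 below it at 10990.4 and 2152. In each of the 4 macrophage clusters Progesterone 1 is the highest library for both sums.

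Within a library, cells high in the other hypoxia members were also high in glycolytic ones. Each epithelial cell was thinned to 10000 UMIs, which left out 20, 207 and 255 cells of Progesterone 1, 2 and 3 and 95 of Placebo 2. Across cells, Pearson's r between the sums was 0.81, 0.82 and 0.81 in Progesterone 1, 2 and 3 (41, 2904 and 3036 cells) and 0.68 in Placebo 2 (2750 cells). Spearman's rho was 0.87, 0.63 and 0.63 in Progesterone 1, 2 and 3 and 0.69 in Placebo 2, so within batch 2 the order of progesterone and placebo depended on the measure. Cells of 1 library share their preparation and are not replicates. Each gene of the other hypoxia sum was taken out of it before its own correlation. Of single genes in batch 2, Bnip3 followed this sum most closely, with r of 0.80, 0.81 and 0.76 in Progesterone 2, Progesterone 3 and Placebo 2. In Progesterone 1, on 41 cells, Bnip3 had 0.72, below Pgk1 and Egln1 (0.80 each) among others. Of the glycolytic genes Gapdh had 0.72, 0.73 and 0.63 and Pgam1 0.74, 0.75 and 0.57 in the batch 2 libraries, in the same order. Hk1 (0.14, 0.15 and 0.11) hardly followed that sum. Slc16a3 had r of -0.01, -0.01 and 0.01. It averaged at most 0.00872 UMIs per thinned cell at any level of the other hypoxia members, too few to tell. Eno1, Eno2, Car9 and Adm, also of few UMIs, had r of -0.01 to 0.10 in these libraries.

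Glycolysis was lower with progesterone in cells low in the other hypoxia members, and not in the cells highest in them. In cells with 0 to 5 UMIs of those 15 genes, the median cell had 40 and 38 against 63 glycolytic UMIs in Progesterone 2 and 3 and in Placebo 2. In cells with 11 to 20 it had 53 and 51 against 91, in cells with 21 to 45 107 and 110 against 128, and in cells with 46 or more 171 and 187 against 167. The ranges between quartiles overlapped in the highest class of cells. That class has no upper bound and reached 216 and 207 other hypoxia UMIs in Progesterone 2 and 3 against 162 in Placebo 2. Its cells are thus not matched for these genes between the treatments. Cells with 46 or more made up 9.71 and 10.1 against 10.3% of cells, while cells with 0 to 5 made up 21.7 and 18.5 against 7.78%. Pgk1 had means of 1.56 and 1.44 against 3.97 UMIs per thinned cell in the lowest class of cells and 9.77 and 10.2 against 12.6 in the highest. Without thinning, the median epithelial cell had 279 and 236 glycolytic UMIs in Progesterone 2 and 3 (median depth 49960 and 42128 UMIs) against 456 in Placebo 2 (44313).

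**Figure D4:**
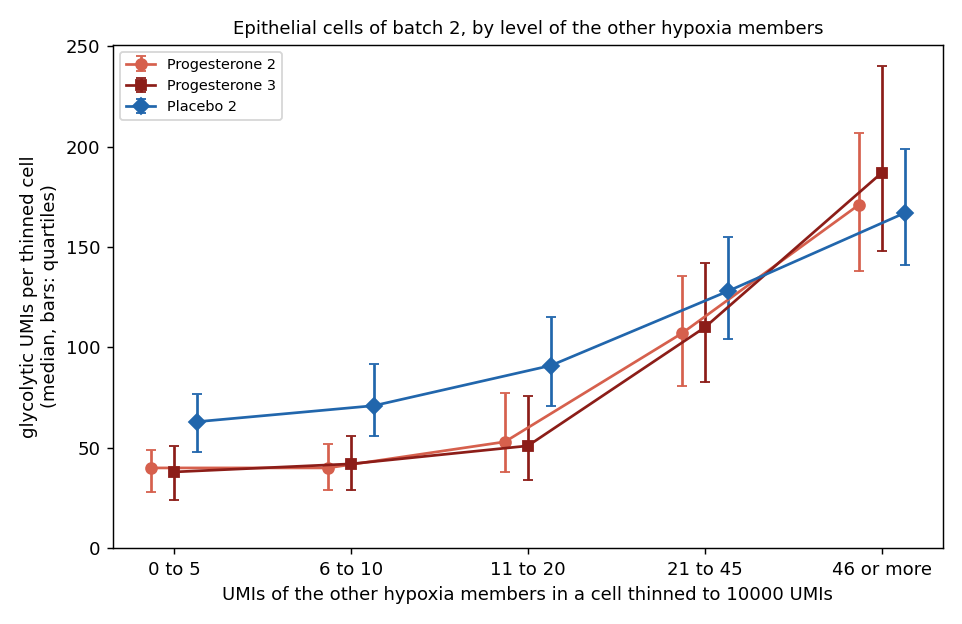
Glycolytic UMIs per epithelial cell of batch 2 (median, bars from the lower to the upper quartile) by the number of other hypoxia UMIs in the cell, each cell thinned to 10000 UMIs. Progesterone 2 and 3 lie below Placebo 2 in the lowest class of cells (40 and 38 against 63) and not in the highest (171 and 187 against 167). The highest class has no upper bound and reached more other hypoxia UMIs in Progesterone 2 and 3 than in Placebo 2.

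In that highest class P4ha2 had means of 4.07 and 4.12 against 1.40 UMIs per thinned cell in Progesterone 2 and 3 and in Placebo 2, and Pgam1 had 22.5 and 24.0 against 14.9, both higher with progesterone. Ndrg1 had 20.7 and 19.2 against 20.7 and Bnip3 10.3 and 10 against 9.65, close to each other in the 3 libraries. Ndrg1, Bnip3 and P4ha2 are part of the sum that defines this class. Their levels in it are thus partly set by that choice of cells. No test was made across cells.

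The regulators of HIF split in epithelial cells: of 12 genes 11 were tested, 4 rose and 4 fell, with a median log2 ratio of 0.13. Hif1a had 124, 112 and 108.6 CPM in Progesterone 1, 2 and 3 against 238 in Placebo 2 (log2 ratio -1.26, SE 0.0948, edgeR adjusted p = 1.44e-11). Epas1 had 28.3, 29.6 and 28.3 against 52.0 (log2 ratio -0.99, SE 0.0892, edgeR adjusted p = 4.67e-10), and Cited2, for a competitor of HIF for its coactivators, had 54.5, 31.1 and 25.05 against 95.9 (log2 ratio -1.92, SE 0.131, edgeR adjusted p = 7.68e-06). All 3 stood below Placebo 2 in every progesterone library, of which Progesterone 1 is of the other batch and adds nothing to the ratios. Hif3a (1.02), for a HIF relative that can restrain the pathway, Hif1an (0.74), for the HIF asparagine hydroxylase, and the coactivator gene Crebbp (0.40) rose. Arnt rose slightly, with 98.0, 61.9 and 71.7 against 51.1 (log2 ratio 0.24, SE 0.097, edgeR adjusted p = 0.0433), and Vhl did not pass, with 16.3, 16.1 and 17.04 against 16.7 (log2 ratio -0.16, SE 0.102, edgeR adjusted p = 0.207).

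Further genes of these processes were mixed. For glycolysis and glycogen of 22 genes 18 were tested, 3 rose and 5 fell, with a median log2 ratio of -0.01. Slc16a1, a carrier gene for lactate and pyruvate, had 11.3, 17.6 and 14.5 against 47.9 CPM (log2 ratio -1.72), and Pgm1 (-1.14) and Pfkfb4 (-1.08) fell as well, while Galm (1.98), for a sugar mutarotase, Ldhb (1.77) and Bpgm (0.36) rose. For further hypoxia genes of 38 genes 37 were tested, 12 rose and 8 fell, with a median log2 ratio of 0.03. Vegfa, the gene of the vessel growth factor, had 237, 124 and 127 against 90.0 and rose (log2 ratio 0.33, SE 0.0972, edgeR adjusted p = 0.0057). Stc2 (2.81), Stc1 (2.80) and Car12 (1.39), for a second membrane carbonic anhydrase, rose most, and Plod2 (-1.85), Jmjd6 (-1.23) and Pfkfb4 fell most. Stc1, with 0.354, 0.732 and 1.27 against 0.129, Stc2, with 1.77, 0.807 and 0.911 against 0.109, and Plod2, with 0.354, 0.0288 and 0.0578 against 0.142, were rare in every library.

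For mitochondrial oxidation of 22 genes 22 were tested, 4 rose and 10 fell, with a median log2 ratio of -0.19. Mpc1, a subunit gene of the mitochondrial pyruvate carrier, had 28.3, 42.1 and 41.4 against 75.01 CPM (log2 ratio -0.99, SE 0.0876, edgeR adjusted p = 3.27e-10). Pdk4, for another pyruvate dehydrogenase kinase, had no UMI in Progesterone 2 or 3 against 24 in Placebo 2, at least 16.97-fold lower with a floor of 3 UMIs over both libraries. Ppargc1a (-2.63), with 1.77, 0.0115 and 0.0193 against 0.0902, fell too in batch 2, and Cox4i2 (1.00), Pdk2 (0.61) and Sdha (0.37) rose. All these counts stand beside 25.9% lower and 25.4% higher over all genes.

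In macrophages no member passed, and the batches went opposite ways. All 17 glycolytic and 15 other hypoxia members were tested with edgeR, with 0 higher and 0 lower, 0 at an unadjusted p under 0.05 and 0 by DESeq2, beside 0.15% of 11992 genes lower and 0.142% higher. The median log2 ratio was 0.03 for glycolytic and 0.34 for other hypoxia members, and 0.04 over all genes. Progesterone 1 over Placebo 1 gave medians of 0.55 for glycolytic and 1.73 for other hypoxia members. Progesterone 2 and 3 over Placebo 2 gave -0.27 and -0.27 for glycolytic and -0.30 and -0.24 for other hypoxia members.

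Single genes show the split. Hk2 had 367, 206 and 189.9 CPM in macrophages of Progesterone 1, 2 and 3, against 49.8 and 234 in Placebo 1 and 2 (log2 ratio 0.77, SE 0.792, edgeR adjusted p = 0.718). Slc2a1 had 435, 131 and 129.7 against 114 and 138 (log2 ratio 0.67, SE 0.463, edgeR adjusted p = 0.569), and Egln3 had 144, 17.8 and 16.97 against 18.7 and 23.0 (log2 ratio 0.53, SE 0.747, edgeR adjusted p = 0.795). In each of these Progesterone 1 was the highest library. Bnip3 had 352, 113 and 118 against 64.3 and 144 (log2 ratio 0.62, SE 0.684, edgeR adjusted p = 0.733), Ndrg1 239, 92.9 and 123 against 64.3 and 149 (log2 ratio 0.34, SE 0.568, edgeR adjusted p = 0.829), and Adm 46.7, 3.62 and 4.85 against 0 and 7.42 (log2 ratio 0.22, SE 1.03, edgeR adjusted p = 0.951), with the same library highest. Car9 was low throughout, with 4.32, 5.17 and 4.98 against 0 and 5.13 (log2 ratio 0.23, SE 0.464, edgeR adjusted p = 0.85).

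Pgk1 had 698, 298 and 313 against 614 and 536 CPM in macrophages of these libraries (log2 ratio -0.38, SE 0.245, edgeR adjusted p = 0.506), Ldha had 838, 521 and 511 against 666 and 723 (log2 ratio -0.13, SE 0.23, edgeR adjusted p = 0.831), and Gapdh had 2612, 1489 and 1614 against 2159 and 1777 (log2 ratio 0.02, SE 0.212, edgeR adjusted p = 0.976). For these 3 genes Progesterone 2 and 3 were the lowest of all 5 libraries, and Progesterone 1 the highest.

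The count in macrophages turned on single libraries. Without Placebo 2, which leaves Placebo 1 as the placebo library, 6 glycolytic and 13 other hypoxia members passed as higher, beside 8.51% of genes higher and 7.27% lower. Without Placebo 1, 5 and 4 passed as lower, beside 10.2% of genes lower and 8.34% higher. Without Progesterone 1, 3 and 3 passed as lower, beside 9.56% lower and 9.05% higher. In batch 2 alone 5 glycolytic and 3 other hypoxia members passed as lower, beside 10.4% of genes lower and 8.51% higher. Macrophage markers summed to 4953, 12243 and 11629.5 CPM in Progesterone 1, 2 and 3, against 2981 and 9910.1 in Placebo 1 and 2. Monocyte markers summed to 2353, 611 and 518 against 5204 and 1692, and epithelial markers to 110.1, 839 and 827 against 33.2 and 1191. Their part in the split was not tested.

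No gene of the regulator and further lists passed in macrophages with edgeR, with 9 at an unadjusted p under 0.05 and 1 called by DESeq2. Hif1a had 625, 317 and 268 against 465 and 352 CPM in macrophages of Progesterone 1, 2 and 3 and of Placebo 1 and 2 (log2 ratio 0.04, SE 0.225, edgeR adjusted p = 0.957), and Vegfa had 612, 270.1 and 291 against 159.7 and 284 (log2 ratio 0.73, SE 0.456, edgeR adjusted p = 0.526). Epas1 had 6.39, 5.10 and 3.70 against 0 and 8.73 (log2 ratio -0.54), Arnt 132, 92.4 and 102 against 93.3 and 84.6 (0.33) and Vhl 34.4, 23.7 and 25.4 against 31.1 and 17.9 (0.39). Hif1a and Vegfa were both highest in Progesterone 1.

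**Figure D5:**
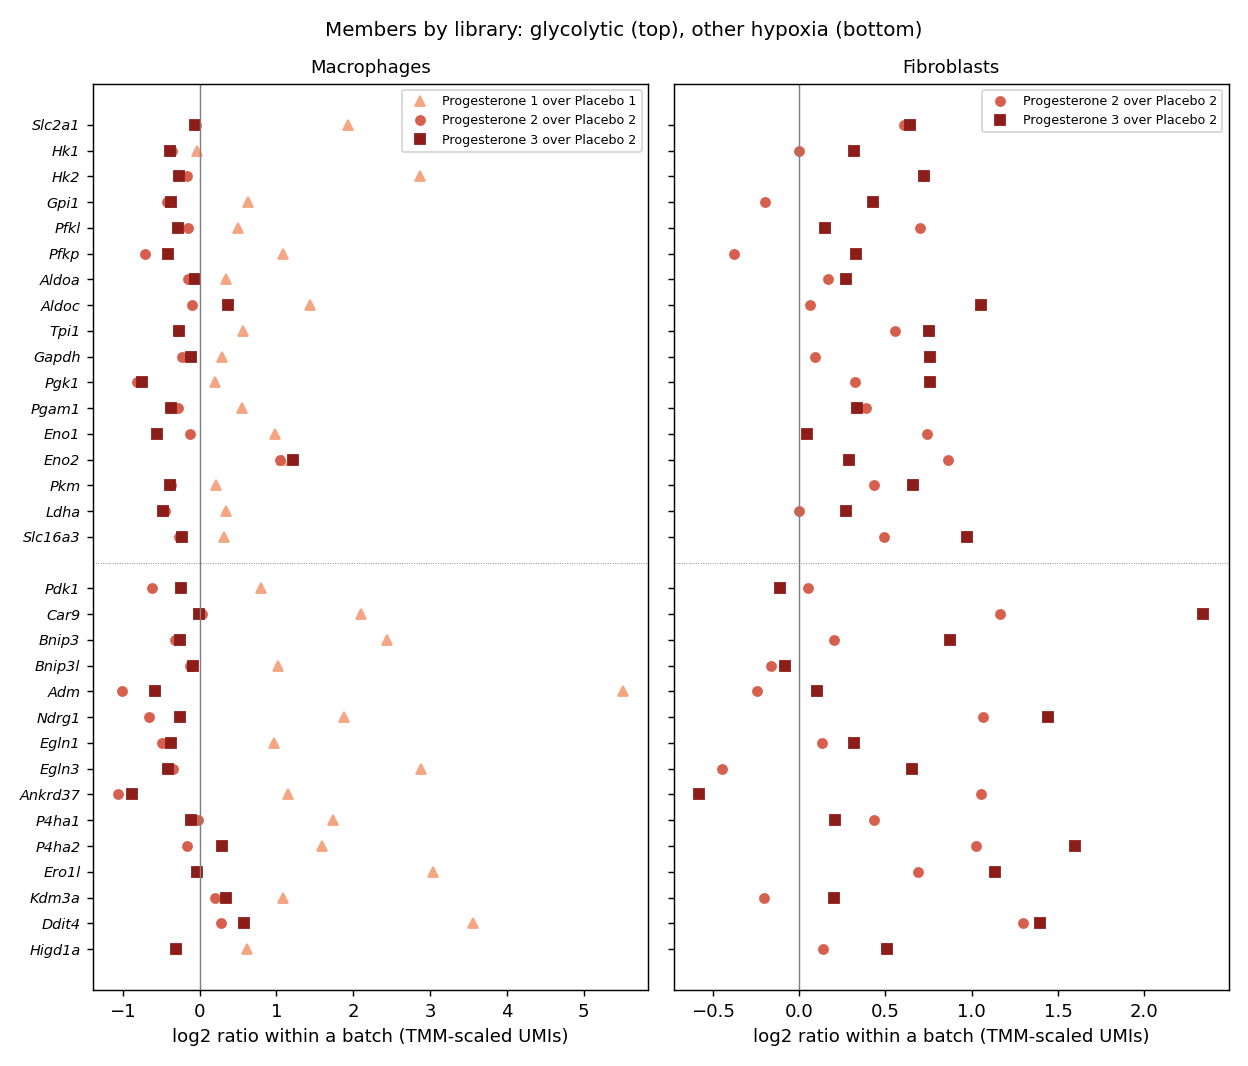
Log2 ratio of each progesterone library over the placebo library of its batch, for each member in macrophages (left) and fibroblasts (right), on TMM-scaled UMIs, glycolytic members above the dotted line. In macrophages Progesterone 1 over Placebo 1 lies furthest right for 31 of the 32 members, up to 5.51 for Adm (0 UMIs in Placebo 1), and in fibroblasts P4ha2 lies at 1.03 and 1.60.

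The responses of epithelial cells and macrophages were set against each other within batch 2. The difference, epithelial log2 ratio minus macrophage log2 ratio, passed for 15 of the 32 members, 13 lower and 2 higher, beside 9.44% of 16517 genes lower and 8.79% higher. Of the glycolytic members 9 were lower, and of the other hypoxia members 4 were lower and 2 higher. Egln3 differed most (difference -4.75, SE 0.257, edgeR adjusted p = 8.83e-09), with 1.83 and 1.02 against 46.6 CPM in epithelial cells of Progesterone 2 and 3 and of Placebo 2, and 17.8 and 16.97 against 23.0 in macrophages. Gapdh (-0.79) had 1697 and 2012 against 3346 in epithelial cells and 1489 and 1614 against 1777 in macrophages. Ankrd37 (1.36) and P4ha2 (1.02) had the higher response in epithelial cells. Ankrd37 had 33.7 and 37.3 against 25.4 there and 14.7 and 16.6 against 31.3 in macrophages. With UMIs thinned to the lowest total, 5 members passed in place of 15, beside 2.61% of genes lower and 1.7% higher.

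In fibroblasts a few hypoxia genes were higher with progesterone in batch 2. Of the 17 glycolytic members 1 rose, of the 15 other hypoxia members 4 rose in edgeR, and none of the 32 fell, with 6 glycolytic and 4 other hypoxia members at an unadjusted p under 0.05 in either direction, beside 2.9% of 11661 genes higher and 1.78% lower. P4ha2 had 19.3, 193 and 272 CPM in fibroblasts of Progesterone 1, 2 and 3, against 103 in Placebo 2 (log2 ratio 1.35, SE 0.241, edgeR adjusted p = 0.00816). Ddit4 had 36.5, 108 and 110.1 against 48.0 (log2 ratio 1.35, SE 0.208, edgeR adjusted p = 0.000621), and Ndrg1 had 65.9, 246 and 304 against 128 (log2 ratio 1.27, SE 0.203, edgeR adjusted p = 0.00106). For all 3, Progesterone 1 of the other batch was the lowest library. Its fibroblast markers summed to 13752 CPM, against 44382, 42994 and 39670 in Progesterone 2, Progesterone 3 and Placebo 2. Plasma cell markers stood at 386 CPM in it, against at most 2.14 in the others. Its median depth was 3676.5 UMIs per fibroblast, against 24335, 20981 and 25448. The part of these differences was not tested. Ero1l (0.93) and Hk2 (0.72) rose as well. The fit again sets Progesterone 2 and 3 against Placebo 2, with 50, 73 and 141 fibroblasts in Progesterone 1, 2 and 3 and 341 in Placebo 2. Malat1 in fibroblasts stood at 13464, 17645 and 17057 CPM in Progesterone 1, 2 and 3 against 11642 in Placebo 2, and Rn45s at 24475, 27214 and 45842 against 21739, and their part in the result was not tested. Ndrg1 and Hk2 fell in epithelial cells, and the difference between these classes was not tested. Of the further hypoxia genes 7 of 35 rose, among them Vegfa with 67.9, 297 and 293 against 184 (log2 ratio 0.84).

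In plasmacytoid dendritic cells 4 glycolytic genes were lower with progesterone in batch 2. Of 15 glycolytic members tested 4 fell and none rose, with 8 at an unadjusted p under 0.05 in either direction, beside 1.01% of 7509 genes lower and 0.439% higher, and of 9 other hypoxia members tested with edgeR 0 passed, with 0 at an unadjusted p under 0.05. Gapdh had 656, 443 and 639.9 CPM in Progesterone 1, 2 and 3, against 928 in Placebo 2 (log2 ratio -0.79, SE 0.172, edgeR adjusted p = 0.000791). Pgk1 (-0.90), Pkm (-0.84) and Aldoa (-0.78) fell too. These libraries held 30, 46 and 41 such cells with progesterone and 48 in Placebo 2. Malat1 stood at 29226, 22249.6 and 22561 CPM in Progesterone 1, 2 and 3 against 15968 in Placebo 2, and monocyte markers at 3391, 4653 and 4634 against 6074. Their part in the result was not tested.

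In T cells none of the 14 glycolytic and 12 other hypoxia members tested with edgeR passed, with 3 and 4 at an unadjusted p under 0.05 and 0 by DESeq2, beside 0.013% of 7665 genes higher and 0% lower. The median log2 ratios were 0.27 and 0.38. The glycolytic sum was 1833 CPM in Progesterone 1 against 1109 in Placebo 1, and 3040.0 and 3542 in Progesterone 2 and 3 against 3011 in Placebo 2, so all batch 2 libraries stood above both of batch 1. Epithelial markers in T cells summed to 135 against 16.2 in batch 1 and to 1890.1 and 1217 against 1219.6 in batch 2, and their part was not tested. In B cells none of the 12 glycolytic and 10 other hypoxia members tested with edgeR passed, with 2 and 1 at an unadjusted p under 0.05, beside 0.439% of 7515 genes higher and 0.0532% lower. NK cells and endothelial cells, with 3 libraries over both batches, left no degree of freedom for a test.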

How the data were processed

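The deposited values are raw UMI counts per gene and cell barcode, made by the authors with Cell Ranger 8.0.1 per the file headers, and Cell Ranger 7.0.0 and the build mm10 appear in the submitters' processing notes. From these counts, barcodes with at least 250 genes were kept. Those with the highest scrublet doublet scores were removed at an assumed rate of 0.8% per 1000 barcodes. This rate set the share removed (1.78 to 4.68% per library), which is not a measured doublet rate. Cells were clustered in scanpy 1.11.5 on 2000 variable genes and 30 principal components (20 neighbours, Leiden resolution 1) without integration of libraries. Clusters were named from marker genes. UMIs were summed per library and class with at least 10 cells, and tested with edgeR 4.0.16 (quasi-likelihood, robust, TMM, filterByExpr, prior count 0.125, batch as a term, Benjamini-Hochberg over all genes of the class, threshold 0.05) in R 4.3.3, with DESeq2 1.42.0 as an alternative. The tests were run on simulated data with a fixed spread between libraries. That setting holds no differences between tumours or in the mix of cells, so it does not show how the tests do with these. Within-batch ratios are on TMM-scaled UMIs. Levels in CPM are shares of the UMIs of a class, scaled to 1000000, and 3′ counting makes levels of different genes only roughly comparable. The libraries kept 2191 to 5583 cells with median depths of 6213 to 24580 UMIs. The alternatives tried were other scalings, tests, filters, depths, cell sets and libraries. Replicate numbers follow accession order and pair nothing. Nothing in the labels states that replicates are separate animals, so the p-values cover the spread among these 5 libraries alone, part of which may be technical. The members and gene lists were chosen with earlier results of these data known. Every member may be named; values in every library are given for members past the threshold with an absolute log2 ratio of at least 1 and for 10 genes chosen by name in epithelial cells and macrophages, and of the other lists the 3 largest calls in each direction and Hif1a, Epas1, Arnt, Vhl and Vegfa.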

Additional observations from a re-analysis of the deposited data

Results flagged for a closer look

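The response to progesterone differed between epithelial cells and macrophages for 15 members, by the test of the difference itself within batch 2 (edgeR interaction, adjusted p from 8.83e-09 to 0.0374). The log2 response was lower in epithelial cells than in macrophages for the glycolytic members Eno2 (-1.95), Aldoc (-0.97), Gapdh (-0.79), Aldoa (-0.64), Pfkl (-0.52), Pgk1 (-0.52), Slc2a1 (-0.45), Tpi1 (-0.44) and Ldha (-0.39). Eno2 was rare in macrophages, with 0 to 1.58 CPM in the macrophage clusters of Placebo 2, so its difference rests on few UMIs. For the other hypoxia members the directions differed. The epithelial response was lower for Egln3 (-4.75), Car9 (-2.51), Pdk1 (-0.78) and P4ha1 (-0.51), and higher for P4ha2 (1.02) and Ankrd37 (1.36). Each value is the epithelial log2 ratio minus the macrophage log2 ratio, with 2 progesterone libraries and 1 placebo library.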

How the results depend on the processing

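In epithelial cells 14 glycolytic and 8 other hypoxia members were lower, 4 other hypoxia members were higher, and the glycolytic minus other hypoxia median was -0.31. Batch, as the titles name it, was the block. With no replicate block these values were 0, 1, 0 and -0.40, and Hk2 reversed to 0.0079. With the unnamed epithelial-scoring clusters added (chosen after seeing the data) they were 0, 2, 1 and -0.43, and Slc2a1 (0.17), Hk1 (0.070), Hk2 (0.28), Bnip3 (0.23), P4ha1 (0.070) and Higd1a (0.11) reversed, in a fit that also holds Placebo 1. With members and lists left out of the clustering, which also brought 15 cells of Placebo 1 into the fit, 9 glycolytic and 4 other hypoxia members were lower and the median difference was -0.34. The last was -0.30 with doublets kept and -0.30 without the Malat1-richest cluster, also chosen after seeing the data, and thinning left 2 other hypoxia members higher. In epithelial cells, Progesterone 1 is alone in its batch and adds nothing to the contrast, so leaving it out is no check, and no other library could be left out of the fit. In macrophages, leaving out each library gave 0 to 6 glycolytic members higher and 0 to 5 lower, 0 to 13 other hypoxia members higher and 0 to 4 lower, and median differences of -1.21 to 0.012. Log2 ratios over these left-out libraries ran from -0.42 to 0.65 for Gpi1, from -0.57 to 1.12 for Pfkp and from -0.84 to 11.33 for Adm. They ran from -0.46 to 1.92 for Ndrg1, from -0.45 to 1.01 for Egln1 and from -0.996 to 1.24 for Ankrd37. These members passed with a sign opposite to the main fit, the first 5 below 0 without Placebo 1 and Ankrd37 above 0 without Placebo 2. Others changed sign over all settings without passing on the opposite side, such as Bnip3 (-0.31 to 2.48) and Hk2 (-0.23 to 2.91). In batch 2 alone 5 glycolytic and 3 other hypoxia members were lower, with Gpi1 (-0.42), Pfkp (-0.58), Ndrg1 (-0.46) and Egln1 (-0.45) reversed. With no filter on low counts 1 other hypoxia member was higher in macrophages, and 1 of each set in T cells. In T cells leaving out each library gave 0 to 3 glycolytic and 0 to 2 other hypoxia members higher. Thinning left 5 members whose response differed between epithelial cells and macrophages. Across macrophages, r was 0.59, 0.59 and 0.52 in Progesterone 1, 2 and 3 and 0.59 in Placebo 2 at 2000 UMIs per cell, and 0.71, 0.76, 0.76 and 0.78 at 8000. The causes of these changes were not tested. Few epithelial cells in batch 1 and genes of a few UMIs, such as Adm, limit what these libraries can show.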

Other observations

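An unnamed cluster that scored highest for epithelial markers (cluster 4) held cells of every library. It had few UMIs (0.0703 times its libraries' median) and no epithelial marker among its leading genes. Macrophage cluster 8 (0.0676 times), with macrophage markers among its leading genes, was named. The glycolytic sums of cluster 4 were 15070.4, 5747 and 5986 CPM in Progesterone 1, 2 and 3, against 7072 and 12757 in Placebo 1 and 2. Its other hypoxia sums were 3231, 1005 and 737, against 1078 and 1329.6. Progesterone 1 was the highest library for both sums, on 199 cells with a median of 2442 UMIs. The response of Hif1a to progesterone was lower in epithelial cells than in macrophages of batch 2 (log2 difference -0.97, edgeR interaction, adjusted p = 2.49e-05), as were those of Slc16a1 (-1.70, edgeR adjusted p = 2.21e-06) and Mpc1 (-1.16, edgeR adjusted p = 4.99e-06). These 3 genes were chosen after their values were seen.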
